A study of Homo sapiens with 9 samples.

Results

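The human mitochondrial genome is a small circle that holds 37 genes, and its transcripts were followed in 22Rv1 cells, a human prostate carcinoma line, after knockdown of CHD9. Members were all genes of the count table whose symbol starts with MT-, 37 of 67071 gene identifiers: 13 mRNAs, 2 rRNAs and 22 tRNAs. Cells labelled wild type expressed a hairpin targeting GFP (shGFP, the control) or either of 2 hairpins against CHD9, a chromatin remodelling helicase. The CHD9 hairpins are called hairpin 1 (shCHD9_1) and hairpin 2 (shCHD9_2) here, and each of the 3 groups had 3 libraries of polyadenylated RNA. The labels name no other treatment, and they do not say that the 3 libraries of a group came from separate cultures. The spread behind every p-value is thus that among these libraries and may be technical.

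Both strands of the mitochondrial genome are transcribed as long precursors by a dedicated polymerase. Most mRNAs and rRNAs are flanked by tRNAs, and cutting out the tRNAs releases them ready made. The 13 mRNAs encode core subunits of respiratory complexes I, III, IV and V, and the 2 rRNAs form the mitochondrial ribosome that translates them. Mitochondrial mRNAs receive poly(A) tails, which complete the stop codon of some of them, whereas the rRNAs carry short A tails and mature tRNAs carry none. Each library of polyadenylated RNA therefore samples the 3 classes unequally, and the counts of a class are read here between groups rather than as amounts in the cell.

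The annotated ends of 4 mRNAs and of both rRNAs are shown 5′ to 3′ (GENCODE 29 on GRCh38, chromosome M). A poly(A) library selects RNA by its tail, and an annotated end need not be where the tail is added. The annotation of MT-ND5 and MT-ND6 stops at the last codon, with no tRNA gene of their strand next to it. After MT-ND5 the next gene of its strand is 598 bases away. Capitals mark the annotated letters of the last codon, which are incomplete in 6 of the 13 mRNAs (a single T in 5 and TA in 1). The rRNA ends hold no codon and have no capitals.
MT-ND1, plus strand, ends at 4262: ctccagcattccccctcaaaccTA
MT-CO3, plus strand, ends at 9990: tctccatctattgatgagggtctT
MT-ND5, plus strand, ends at 14148: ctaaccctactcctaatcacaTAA
MT-ND6, minus strand, ends at 14149: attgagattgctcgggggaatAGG
MT-RNR1, plus strand, ends at 1601: aagtgtactggaaagtgcacttggacgaac
MT-RNR2, plus strand, ends at 3229: tatacccacacccacccaagaacagggttt
MT-RNR1 is followed by a tRNA gene with no base between them, and so is MT-RNR2. The tRNA after MT-RNR2 is MT-TL1, which also holds the binding site of the factor MTERF1. All members are genes of a single exon.

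Library totals ranged from 18911142 to 31968602 counts, and 16855 genes passed the filter on low counts. Of the 37 members, 19 passed it: both rRNAs, all 13 mRNAs and 4 tRNAs. CHD9 (ENSG00000177200.17) was at 22.2 ± 1.42 CPM (counts per 1000000 of the scaled library total) in shGFP, 15.4 ± 1.07 under hairpin 1 and 18.8 ± 0.465 under hairpin 2 (SD, n = 3 each). Without shGFP replicate 3 its fall with hairpin 2 did not pass the test (log2 fold change -0.20, edgeR adjusted p = 0.054). All 10 prostate markers were detected and tested, and their summed level was 2157 to 2196 CPM in shGFP, 2624 to 2653 with hairpin 1 and 2507 to 2554 with hairpin 2. The 11 markers of immune, endothelial and stromal cells summed to 10.1 to 10.9, 12.5 to 13.3 and 12.3 to 14.4 CPM in the same groups, and CD3E was at 0. Single markers moved in both directions, which the sums do not show. In the mean of both hairpins, log2 fold changes ran from -0.29 to 1.80 over the 10 prostate markers. Over the 4 tested markers of other cells they ran from -0.94 to 0.89. The part of immune, endothelial and stromal cells in the results below was not tested. Libraries of a group differed by more than counting noise (chi-square per degree of freedom 1.72 to 2.86 over 9 pairs). The fit took each library as a replicate, although the labels do not state separate cultures.

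Mitochondrial transcripts took 3.66%, 3.69% and 3.83% of all counts in the shGFP libraries. With hairpin 1 their share was 4.01%, 4.07% and 3.99%, and with hairpin 2 it was 3.998%, 3.88% and 3.95%. All 6 knockdown libraries lay above all 3 controls, by 0.257 percentage points on average, and the 2 hairpins overlapped. The Wilson 95% interval of a single share reached at most 0.00848 points to either side, which covers counting error only. Most of the difference lay in the 2 rRNAs, since the 13 mRNAs alone took 3.35% ± 0.0873 in shGFP, 3.43% ± 0.0351 under hairpin 1 and 3.40% ± 0.0588 under hairpin 2 (SD, n = 3 each). In bulk RNA more mitochondrial RNA in each cell and more cells rich in it cannot be told apart.

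The 2 rRNAs rose with both CHD9 hairpins and no mRNA changed by more than 0.25 on the log2 scale. MT-RNR2 (ENSG00000210082.2, chromosome M, 1671 to 3229, plus strand), the RNA of the large ribosomal subunit, had 61728, 74773 and 87846 counts in the shGFP libraries, or 3249, 3299.8 and 3359 CPM. With hairpin 1 it was at 5414, 5491 and 5409 CPM. With hairpin 2 it was at 4987, 4898 and 4714 CPM. The 3 groups did not overlap: hairpin 1 was highest, hairpin 2 between and shGFP lowest. The fold change was 1.65 with hairpin 1 (log2 fold change 0.72, SE 0.02, edgeR adjusted p = 4.9e-31, from its quasi-likelihood test over all genes). With hairpin 2 it was 1.47 (log2 fold change 0.56, SE 0.02, edgeR adjusted p = 1.9e-26).

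MT-RNR1 (ENSG00000211459.2, chromosome M, 648 to 1601, plus strand), the RNA of the small subunit, rose less. Its shGFP libraries had 6850, 9168 and 9680 counts, or 361, 405 and 370.2 CPM. Under hairpin 1 it was at 548, 529 and 492 CPM, and under hairpin 2 at 473, 498 and 487 CPM. Every knockdown library was above every control, while the 2 hairpins overlapped. The rise was 1.38-fold with hairpin 1 (log2 fold change 0.47, SE 0.03, edgeR adjusted p = 1.7e-16) and 1.28-fold with hairpin 2 (log2 fold change 0.36, SE 0.03, edgeR adjusted p = 1.1e-12). Against shGFP, the rises of both rRNAs held under every alternative tried.

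Set against the mRNAs of the same genome, the rRNA counts separated the 3 groups. MT-RNR1 and MT-RNR2 together had 11.01, 11.2 and 10.8 counts per 100 mRNA counts in the shGFP libraries. The ratio was 17.1, 17.0 and 17.0 under hairpin 1, and 15.9, 16.4 and 15.4 with hairpin 2. On the log2 scale it was higher by 0.63 with hairpin 1, 0.53 with hairpin 2 and 0.58 on average, with a pooled SD of 0.0298 between libraries of a group. The ratio needs no library scaling and is a description over the members, with no test.

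**Figure D1:**
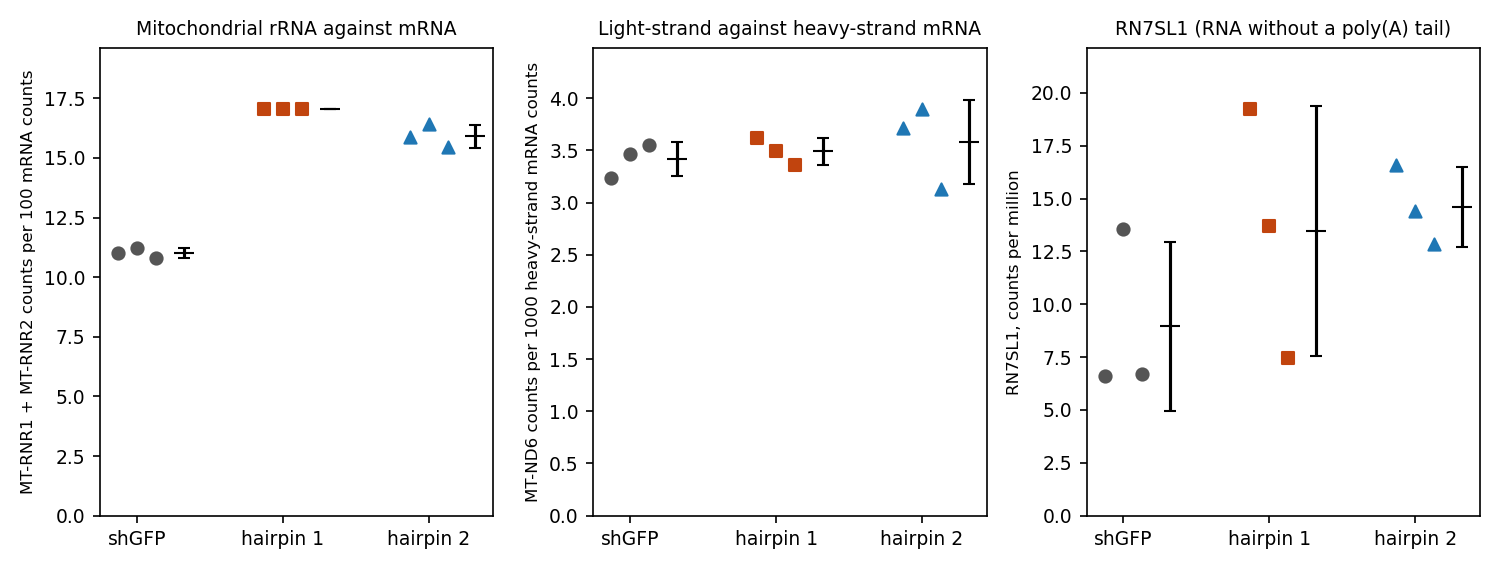
Each point is a library, with the mean and SD of its group (n = 3) beside it: rRNA counts per 100 mitochondrial mRNA counts (left), MT-ND6 counts per 1000 counts of the other mRNAs (middle) and RN7SL1 in CPM of the library total (right). The rRNA ratio is 10.8 to 11.2 in shGFP and 15.4 to 17.1 in the knockdown libraries, while the other quantities overlap between groups.

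Each rRNA was then tested in a fit whose library size was the summed mitochondrial mRNA counts. Relative to the mRNAs, MT-RNR2 was higher by 0.60 on the log2 scale in the mean of both hairpins (SE 0.02, edgeR adjusted p = 1.7e-54) and MT-RNR1 by 0.38 (SE 0.03, edgeR adjusted p = 7.2e-22). Between the hairpins, MT-RNR2 was 0.10 higher with hairpin 1 (edgeR adjusted p = 0.0014). MT-RNR1 had a difference of 0.05 that did not pass (edgeR adjusted p = 0.35). In this fit 43.9% of all genes were called in the mean of both hairpins. The median log2 fold change of all genes was -0.03 in the mean, -0.06 with hairpin 1, -0.01 with hairpin 2 and -0.06 between the hairpins. Each mRNA is part of this library size, so the value of an mRNA in this fit is not independent of its scale.

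The balance of the 2 rRNAs also shifted. There were 9.01, 8.16 and 9.08 MT-RNR2 counts per MT-RNR1 count in the shGFP libraries. With hairpin 1 the figures were 9.89, 10.4 and 10.99, and with hairpin 2 they were 10.5, 9.83 and 9.68. The lowest knockdown value lay above the highest control value, and the hairpins overlapped.

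RN7SL1, the RNA of the signal recognition particle, has no poly(A) tail and was the only one of 25 such RNAs looked at that passed the filter. Its level was 6.61, 13.6 and 6.70 CPM of the unscaled library total in shGFP, 19.2, 13.7 and 7.44 under hairpin 1, and 16.6, 14.4 and 12.8 with hairpin 2. RN7SL1 was called higher in the mean of both hairpins (log2 fold change 0.64, SE 0.16, edgeR adjusted p = 0.0012), although its groups overlapped and DESeq2 gave an adjusted p of 0.16. With hairpin 1 alone (0.58) the call was lost without shGFP replicate 1 (0.43) or 3 (0.39) or hairpin 1 replicate 1 (0.24). Clustered histone genes, whose mRNAs mostly lack a poly(A) tail, had 8 of 21 tested members lower, 0 higher and 13 not passed in the mean of both hairpins, with a median log2 fold change of -0.32, beside 45.5% of all genes called and 23.2% lower. This list was chosen after its values were seen, and the part of tail selection in the rRNA rise was not tested.

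Over all members, 8 of the 19 tested were called higher and 1 lower in the mean of both hairpins, and 10 did not pass (edgeR, Benjamini-Hochberg adjusted p under 0.05 over all genes tested). That is 47.4% of the members beside 45.5% of all genes tested, of which 22.3% were higher and 23.2% lower, so the share called was near the background. All knockdown libraries lay above all controls for 5 members (MT-RNR1, MT-RNR2, MT-ND2, MT-CO3 and MT-ND5) and below them for 0. Among all genes 31.7% did not overlap, 15.5% higher and 16.2% lower.

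With hairpin 1, 9 members were called higher and 0 lower, beside 47.3% of all genes, 23.9% higher and 23.4% lower. The groups did not overlap for 8 members, all higher, beside 53.9% of all genes, 27% higher and 26.9% lower. With hairpin 2, 8 members were called higher and 1 lower, beside 35.7% of all genes, 17.2% higher and 18.5% lower. Here 6 members lay wholly above shGFP and 2 wholly below, MT-CO1 and MT-TS1, beside 44.1% of all genes, 21.4% higher and 22.7% lower. The median log2 fold change of the 13 mRNAs was 0.08 in the mean of both hairpins, 0.10 with hairpin 1 and 0.07 with hairpin 2, and that of all genes was 0.00 in each. Without regard to sign, the median over all genes was 0.17, 0.21 and 0.16. The comparisons with shGFP share the control libraries, so their counts are not independent of each other.

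**Figure D2:**
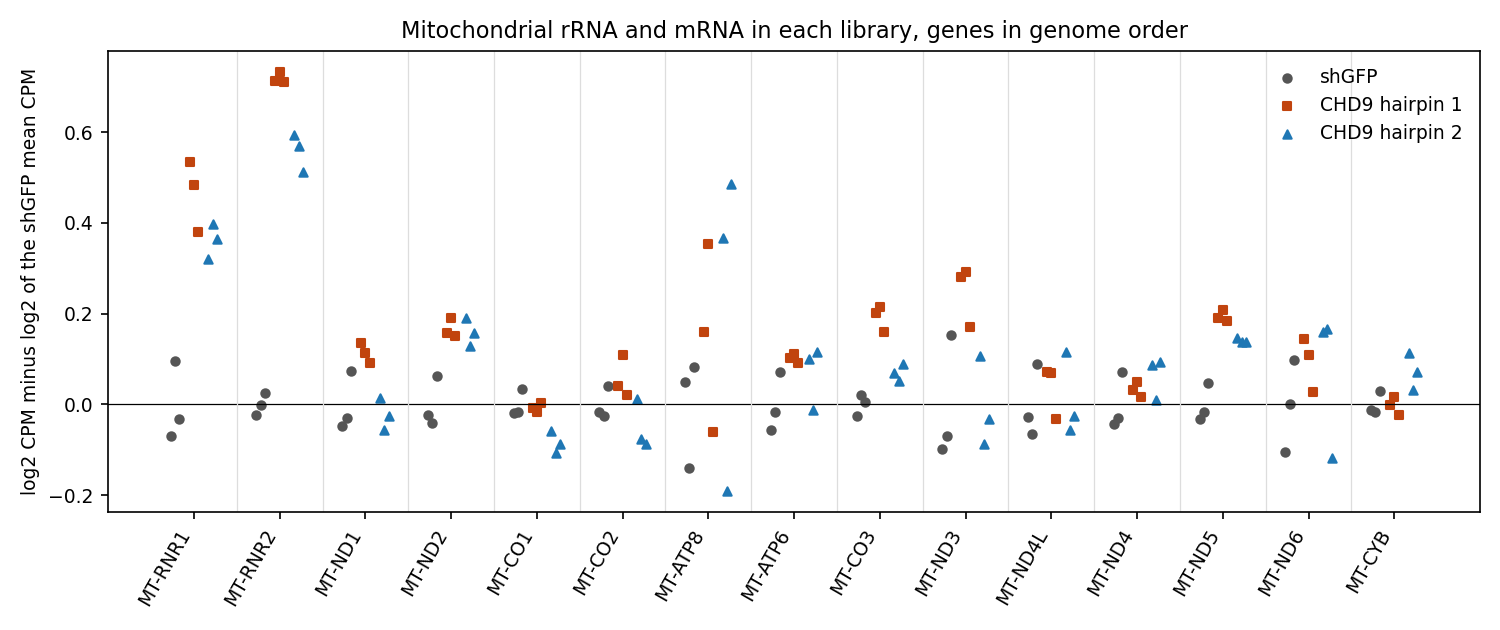
Each point is the level of a gene in a library, as log2 CPM minus log2 of the shGFP mean CPM, with genes in their order on the mitochondrial genome. MT-RNR1 and MT-RNR2 stand above 0 in all 6 knockdown libraries by more than any other gene does in all 6.

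Complex I, the NADH dehydrogenase at the entry of the respiratory chain, has 7 mitochondrial mRNAs. In the mean of both hairpins 4 of them were higher, 0 lower and 3 not passed, beside 22.3% of all genes higher and 23.2% lower. MT-ND2 and MT-ND5, which encode membrane subunits that pump protons, rose with both hairpins. MT-ND2 was at 1860.2, 1836 and 1973 CPM in shGFP, 2106, 2155 and 2099 under hairpin 1, and 2155, 2067 and 2106 with hairpin 2. All knockdown libraries were above the controls and the hairpins overlapped (log2 fold change 0.17 and 0.16, edgeR adjusted p = 2.9e-08 and 1.6e-07). MT-ND5 was at 1865, 1885 and 1968 CPM in shGFP, 2173, 2202 and 2165 under hairpin 1, and 2107, 2098 and 2097 with hairpin 2. Its 3 groups did not overlap (log2 fold change 0.19 and 0.14, edgeR adjusted p = 6.4e-11 and 3e-07). Both genes kept their calls against shGFP in every alternative, including the fit on mitochondrial mRNA counts.

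MT-ND3 and MT-ND1 rose with hairpin 1. MT-ND3, a small subunit of the membrane arm, was at 419, 428 and 499 CPM in shGFP, 545, 549 and 505 under hairpin 1, and 483, 422 and 438 with hairpin 2. The hairpin 1 libraries lay above the others, and hairpin 2 overlapped shGFP. The log2 fold change was 0.25 with hairpin 1 (SE 0.04, edgeR adjusted p = 1.4e-06) and -0.01 with hairpin 2 (edgeR adjusted p = 0.94). Its call in the mean of both hairpins (0.12) did not pass without shGFP replicate 1 (0.08) or replicate 2 (0.09), nor with DESeq2 (0.12).

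MT-ND1, a subunit near the quinone site, was at 1113, 1127 and 1211 CPM in shGFP, 1264, 1245 and 1226 under hairpin 1, and 1162, 1106 and 1131 with hairpin 2. Its log2 fold change was 0.11 with hairpin 1 (SE 0.02, edgeR adjusted p = 0.00014) and -0.02 with hairpin 2 (edgeR adjusted p = 0.52). Relative to the mitochondrial mRNAs the hairpin 1 value was 0.05 and did not pass. Its value in the mean of both hairpins (0.05) did not pass either, but did without shGFP replicate 3 (0.08) or hairpin 2 replicate 2 (0.06).

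MT-ND4 and MT-ND4L share 7 bases of a common transcript, so reads there are uncertain between them. MT-ND4 ranged from 4312 to 4664 CPM in shGFP, 4491 to 4599 with hairpin 1 and 4473 to 4742 with hairpin 2, all overlapping. It was called higher in the mean of both hairpins (log2 fold change 0.05, SE 0.02, edgeR adjusted p = 0.039) and with hairpin 2 (0.06, edgeR adjusted p = 0.021). Without shGFP replicate 1 or 2 or hairpin 2 replicate 3, neither call held (values of 0.03, 0.03 and 0.04 in the mean and 0.04, 0.05 and 0.05 with hairpin 2), and the mean call was also lost without hairpin 1 replicate 2 (0.04). Both calls were lost with DESeq2 (adjusted p = 0.096 and 0.057) and relative to the mitochondrial mRNAs, where the values were 0.01 in the mean and 0.06 with hairpin 2. With hairpin 1, MT-ND4 passed without shGFP replicate 3 (0.07). MT-ND4L had log2 fold changes of 0.02, 0.04 and 0.01 in the mean, with hairpin 1 and with hairpin 2, none of which passed, although the hairpin 1 value did without shGFP replicate 3 (0.08).

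MT-ND6 is the only mRNA on the minus strand of the reference, transcribed from the light-strand promoter, and is known to lack a long poly(A) tail. It was at 106, 114 and 122 CPM in shGFP, 126, 122.9 and 116 under hairpin 1, and 127, 128 and 105 with hairpin 2. The groups overlapped, and the log2 fold changes of 0.09 (SE 0.05) and 0.08 (SE 0.05) did not pass (edgeR adjusted p = 0.13 and 0.21). Without shGFP replicate 3 they did (0.14 and 0.13), and likewise without hairpin 2 replicate 3 (0.09 and 0.16). In the mean of both hairpins the value of 0.08 did not pass (edgeR adjusted p = 0.099). It did with no filter on low counts (0.08) and without shGFP replicate 3 (0.14) or hairpin 2 replicate 3 (0.12). Counts of MT-ND6 per 1000 counts of the other 12 mRNAs were 3.24, 3.47 and 3.55 in shGFP, 3.62, 3.49 and 3.36 under hairpin 1, and 3.72, 3.90 and 3.13 with hairpin 2. The log2 difference from shGFP was 0.03 and 0.06, less than the pooled SD of 0.109 between libraries. Without hairpin 2 replicate 3, the lowest library, the hairpin 2 value was 0.16 and so above that SD, and without hairpin 2 replicate 2 it was -0.0029. The hairpin 1 value was -0.0078 without shGFP replicate 1. Because the strand setting of the counting is not given, reads from the 2 strands cannot be told apart at this gene.

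Complex IV, cytochrome c oxidase, takes its catalytic core from MT-CO1, MT-CO2 and MT-CO3, and these moved apart. MT-CO3 was at 3246, 3349 and 3314 CPM in shGFP, 3795, 3831 and 3692 under hairpin 1, and 3465, 3424 and 3511 with hairpin 2. The 3 groups did not overlap (log2 fold change 0.19 and 0.07, SE 0.02 each, edgeR adjusted p = 1.6e-11 and 0.0033). Relative to the mitochondrial mRNAs the hairpin 2 value was 0.06 and did not pass. MT-CO1 was at 10608, 10619.6 and 11001 CPM in shGFP, 10678, 10619 and 10757 under hairpin 1, and 10311, 9975 and 10108 with hairpin 2. Hairpin 2 lay below the other groups, which overlapped each other. It fell with hairpin 2 by 0.08 on the log2 scale (SE 0.02, edgeR adjusted p = 0.00011), and its value with hairpin 1 was -0.01 (edgeR adjusted p = 0.75). The fall in the mean of both hairpins (-0.05, SE 0.01, edgeR adjusted p = 0.0099) did not pass without shGFP replicate 3 (-0.03). Relative to the mitochondrial mRNAs, of which MT-CO1 is a part, the hairpin 1 value was -0.07 and passed, beside a median of -0.06 over all genes.

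The call of MT-CO2 depended on the libraries and the fit. Its level was 4582, 4555 and 4766 CPM in shGFP, 4765, 4999 and 4698 under hairpin 1, and 4672, 4393 and 4361 with hairpin 2, with shGFP overlapping each. The value with hairpin 1 was 0.06 (SE 0.02, edgeR adjusted p = 0.033), and it did not pass without shGFP replicate 1 (0.05) or 2 (0.04), without hairpin 1 replicate 2 (0.03) or with DESeq2 (0.06), and was -0.01 relative to the mitochondrial mRNAs. With hairpin 2 it was -0.05 and did not pass (edgeR adjusted p = 0.076), but did without shGFP replicate 2 (-0.06) or hairpin 2 replicate 1 (-0.08), with no filter on low counts and with voom.

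Complex V, the ATP synthase, has MT-ATP6, a proton channel subunit, and MT-ATP8, a small accessory subunit, read from a common transcript in which they share 46 bases. MT-ATP6 was at 1926, 1981 and 2104 CPM in shGFP, 2152, 2163 and 2134 under hairpin 1, and 2149, 1985 and 2170.0 with hairpin 2. Hairpin 1 lay above shGFP, and hairpin 2 overlapped it. The log2 fold change was 0.10 with hairpin 1 (SE 0.03, edgeR adjusted p = 0.00094) and 0.07 with hairpin 2 (SE 0.03, edgeR adjusted p = 0.032). Under hairpin 2 it did not pass without shGFP replicate 1 (0.04) or 2 (0.06) and without hairpin 2 replicate 1 (0.06) or 3 (0.04). Neither hairpin passed with DESeq2 or relative to the mitochondrial mRNAs (0.04 and 0.06), and the call in the mean of both (0.08) was lost in those fits and without shGFP replicate 1 (0.06).

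MT-ATP8 ranged from 17.0 to 19.8 CPM in shGFP, 17.9 to 23.9 with hairpin 1 and 16.4 to 26.2 with hairpin 2. Its log2 fold changes of 0.15 (SE 0.10) and 0.22 (SE 0.10) did not pass (edgeR adjusted p = 0.24 and 0.084). The hairpin 2 value was 0.43 and passed without hairpin 2 replicate 2, the library at 16.4 CPM, and the value in the mean of both was then 0.29. It also passed in the mean without hairpin 1 replicate 3 (0.24) and, with hairpin 2, in the fit on mitochondrial mRNA counts (0.22). With no filter on low counts it passed in the mean (0.19) and with hairpin 2 (0.22). Between the hairpins it passed without that hairpin 2 library (-0.27).

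Complex III has a single mitochondrial subunit, the cytochrome b of MT-CYB. It was at 2239, 2233 and 2308 CPM in shGFP, 2256, 2284 and 2223 under hairpin 1, and 2445, 2310.4 and 2375 with hairpin 2. Hairpin 2 lay above shGFP (log2 fold change 0.07, SE 0.02, edgeR adjusted p = 0.0048), while the hairpin 1 value was -0.00 (edgeR adjusted p = 0.90). Relative to the mitochondrial mRNAs, hairpin 2 did not pass (0.06) and hairpin 1 was lower (-0.07, edgeR adjusted p = 0.038). The median of all genes with hairpin 1 was -0.06 in that fit. In the mean of both hairpins its value of 0.03 did not pass, but did without shGFP replicate 3 (0.05) or hairpin 2 replicate 2 (0.05).

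**Figure D3:**
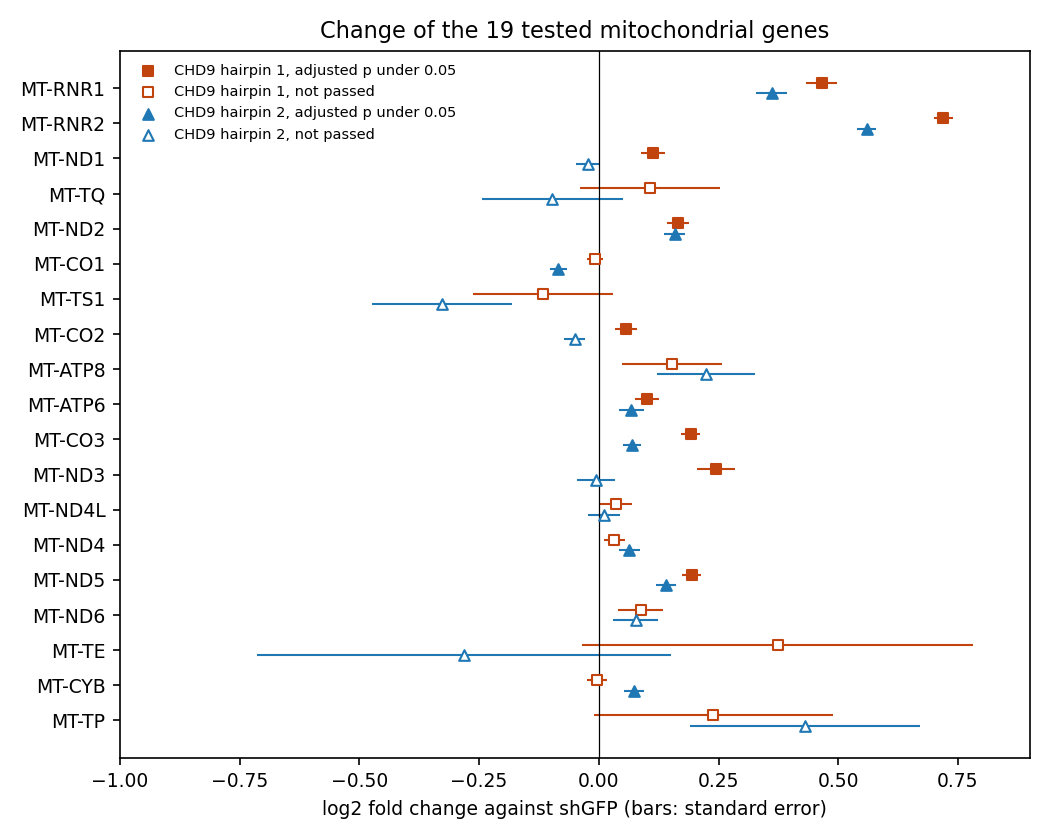
Points are log2 fold changes against shGFP with standard errors for the 19 tested members, filled where the edgeR adjusted p was under 0.05. MT-RNR2 (0.72 and 0.56) and MT-RNR1 (0.47 and 0.36) lie to the right of all 13 mRNAs with either hairpin.

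The 22 tRNAs were counted too rarely to carry a comparison. Together they had 2682 counts in all 9 libraries, and 10 of them were at 0 in each, which allows at most 0.0938 to 0.159 CPM per library (3 counts, counting error only). The 8 tRNAs on the minus strand held 2586 of these counts (96.4%), with 6 detected, and the 14 on the plus strand held 96 (3.58%), also with 6 detected. Counts per library were 256, 265 and 329 in shGFP, 269, 274 and 366 under hairpin 1, and 340, 392 and 191 with hairpin 2, and the groups overlapped.

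Sequences of the 2 tRNAs with the most counts, MT-TS1 and MT-TQ, and of the 2 that flank MT-RNR2 and had 0 counts, MT-TV and MT-TL1, are given whole and 5′ to 3′ (GENCODE 29, GRCh38, chromosome M).
MT-TS1, 7446 to 7514, minus strand: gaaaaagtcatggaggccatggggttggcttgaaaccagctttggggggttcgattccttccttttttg
MT-TQ, 4329 to 4400, minus strand: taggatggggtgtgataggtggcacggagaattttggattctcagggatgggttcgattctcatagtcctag
MT-TV, 1602 to 1670, plus strand: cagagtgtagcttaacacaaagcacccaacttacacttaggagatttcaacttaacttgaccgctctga
MT-TL1, 3230 to 3304, plus strand: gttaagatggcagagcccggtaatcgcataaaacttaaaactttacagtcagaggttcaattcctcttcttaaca
MT-TS1, the serine tRNA after MT-CO1, had 1027 counts in all and lay between 3.58 and 5.998 CPM. MT-TQ, the glutamine tRNA before MT-ND2, had 993 counts and lay between 3.25 and 5.42 CPM. Neither passed against shGFP (edgeR adjusted p = 0.55 and 0.077 for MT-TS1, 0.59 and 0.66 for MT-TQ), nor did MT-TE or MT-TP. Leaving out a library of hairpin 2 brought in MT-TS1 with hairpin 2 (without replicate 1, log2 fold change -0.42) and MT-TP with hairpin 2 (without replicate 3, 0.62). Reads of a minus-strand tRNA and of a plus-strand transcript over the same bases cannot be told apart without the strand setting.

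The 2 hairpins differed from each other in 9 of the 19 tested members, 8 higher and 1 lower with hairpin 1, beside 29.2% of all genes called, 15.6% higher and 13.6% lower. Libraries of the hairpins did not overlap for 8 members, 7 higher and 1 lower with hairpin 1, beside 39.6% of all genes, 20.6% higher and 18.9% lower. The largest difference among the mRNAs was that of MT-ND3 (0.25 on the log2 scale, SE 0.04, edgeR adjusted p = 2.5e-06), followed by MT-ND1 (0.14, edgeR adjusted p = 2.2e-05), MT-CO3 (0.12, edgeR adjusted p = 2.1e-06) and MT-CO2 (0.11, edgeR adjusted p = 0.00020). MT-RNR2 was higher with hairpin 1 by 0.16 (SE 0.02, edgeR adjusted p = 8.1e-09). MT-CYB was lower with hairpin 1 by -0.08 (edgeR adjusted p = 0.0039). The difference of MT-RNR1 (0.10) was lost without replicate 1 of hairpin 1 (0.07) or of hairpin 2 (0.08) and with DESeq2 (0.10). That of MT-ND5 (0.05) was lost without any of the hairpin 1 libraries (0.05 to 0.06). It was also lost without hairpin 2 replicate 2 or 3 (0.05 each) or shGFP replicate 1 (0.05). The other fits that lost it were DESeq2, its size factors in edgeR, no filter on low counts and a filter of 1 CPM in 6 libraries (0.05 each). Relative to the mitochondrial mRNAs, MT-CO1 (0.02), MT-CO2 (0.05) and MT-CO3 (0.07) did not pass between the hairpins, and MT-ND4 did (-0.09). In that fit the median of all genes between the hairpins was -0.06.

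Levels between genes are compared per kilobase of transcript, as counts in these libraries and not as amounts in the cell. The rRNAs carry short A tails and MT-ND6 lacks a long one. Their places among the mRNAs may thus depend on tail selection, which was not tested. The levels span a wide range although 12 of the 13 mRNAs come from the same strand. In shGFP, MT-CO1 was at 6967 ± 145 CPM per kilobase and MT-CO2 at 6775 ± 168, and their libraries overlapped. Then came MT-CO3 (4213 ± 66.7), MT-ND4 (3224 ± 140), MT-ATP6 (2942 ± 134), MT-RNR2 (2118 ± 35.5) and MT-CYB (1981 ± 36.6), which did not overlap their neighbours. MT-ND2 (1814 ± 70.4) and MT-ND4L (1693 ± 95.9) overlapped, as did MT-ND3 (1296 ± 127) and MT-ND1 (1203 ± 55.4). MT-ND5 (1052 ± 30.1), MT-RNR1 (397 ± 24.3), MT-ND6 (217 ± 15.3) and MT-ATP8 (90.4 ± 7.32) closed the order, without overlap (SD, n = 3 throughout). MT-ATP8 is read from a common transcript with MT-ATP6 and shares 46 of its 207 bases with it. How reads touching both genes were counted is not given. The low place of MT-ATP8 may thus reflect the counting, which was not tested. With hairpin 1, MT-RNR2 was at 3488 CPM per kilobase and so above MT-ND4 (3297) and MT-ATP6 (3156), and with hairpin 2 it was at 3121, between MT-ND4 (3371) and MT-ATP6 (3086).

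**Figure D4:**
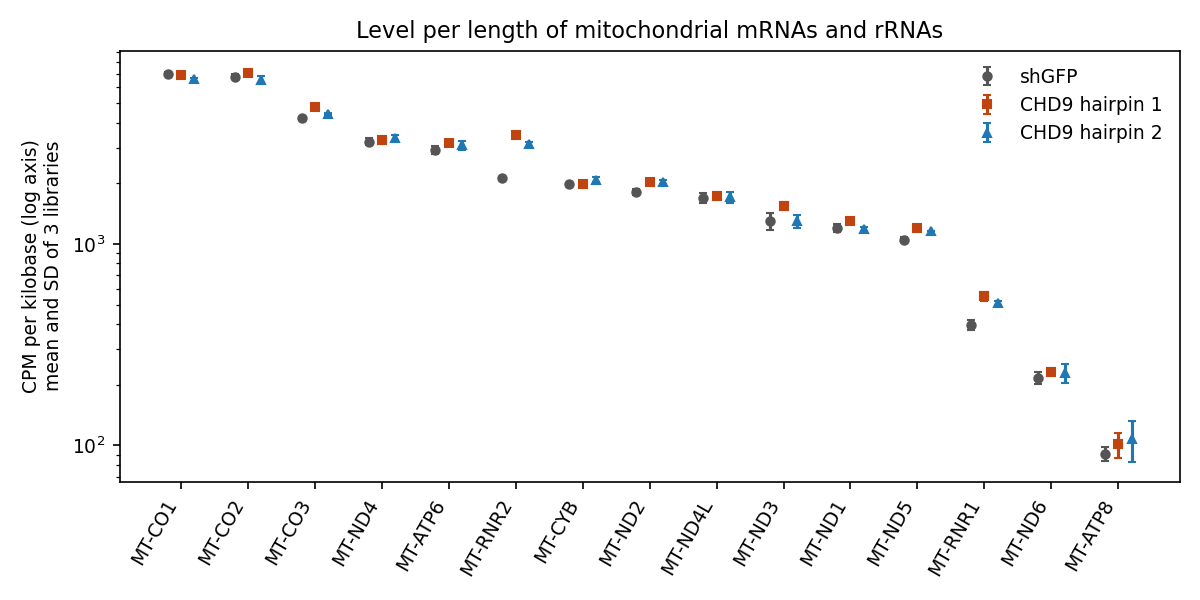
The mean CPM per kilobase of each rRNA and mRNA is drawn on a log axis with the SD of 3 libraries, for each group, in the order of the shGFP levels. MT-RNR2 moves from 2118 in shGFP to 3488 and 3121 with the hairpins, while the mRNAs keep close to their control levels.

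The fold changes of the mRNAs were also set against their place on the genome. Over the 12 mRNAs of the plus strand, Spearman's rho between the log2 fold change and the position was 0.10 in the mean of both hairpins, -0.04 with hairpin 1 and 0.29 with hairpin 2. Against the level per kilobase in shGFP, rho was -0.62, -0.55 and -0.50, the more abundant mRNAs having the lower fold changes. These are descriptions over 12 genes that share a precursor, libraries and scaling, and the fold changes use the same shGFP libraries as the level.

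Transcription of the mitochondrial genome depends on nuclear genes, and the transcription list had 1 of 10 tested members higher, 4 lower and 5 not passed in the mean of both hairpins (median log2 fold change -0.10). The lists were chosen with earlier results of these data known, and 45.5% of all genes were called. MTERF1, which binds DNA within MT-TL1, fell from 19.5, 19.5 and 22.6 CPM in shGFP to 14.5, 13.9 and 14.8 under hairpin 1 and 14.7, 16.7 and 14.998 with hairpin 2. All 6 knockdown libraries lay below the controls (log2 fold change -0.52 and -0.41, edgeR adjusted p = 3.9e-07 and 2.7e-05). POLRMT, the mitochondrial RNA polymerase, rose from 138, 151 and 147 CPM in shGFP to 168, 156 and 159 under hairpin 1 and 161, 167 and 163 with hairpin 2 (log2 fold change 0.14 and 0.17, edgeR adjusted p = 0.00038 and 5.8e-05). MTERF4, of the same family as MTERF1 and active in ribosome assembly, fell by 0.21 on the log2 scale in the mean of both hairpins, and MTERF2 by 0.23, a call lost without shGFP replicate 2 (-0.18). TFAM, which packages and bends mitochondrial DNA, fell by 0.19 with hairpin 1 (edgeR adjusted p = 0.00091) and had -0.06 with hairpin 2. Its call in the mean (-0.13) was lost without shGFP replicate 3 (-0.06). The initiation factor gene TFB2M (0.06) and the elongation factor gene TEFM (-0.20) did not pass in the mean. TEFM passed there without shGFP replicate 2 (-0.25) or hairpin 1 replicate 2 (-0.24). With hairpin 2 its value of -0.25 passed (edgeR adjusted p = 0.043), a call lost without any single library of hairpin 2 (-0.20 to -0.28), shGFP replicate 1 (-0.18) or 3 (-0.26) or hairpin 1 replicate 1 (-0.24), and with DESeq2, voom or no filter on low counts.

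Of the 22 genes of RNA processing and stability, 3 were higher and 7 lower, and 12 did not pass (median -0.01). These counts are for the mean of both hairpins, where 22.3% of all genes were higher and 23.2% lower. TRMT10C, a subunit of the mitochondrial RNase P that cuts tRNAs out of the precursor, was at 78.6, 72.4 and 77.2 CPM in shGFP, 46.4, 46.4 and 45.3 under hairpin 1, and 64.8, 64.9 and 58.3 with hairpin 2. The 3 groups did not overlap (log2 fold change -0.73 and -0.27, SE 0.05 and 0.04, edgeR adjusted p = 7.5e-18 and 1.2e-06). LRPPRC, which with SLIRP protects mitochondrial mRNAs, fell by 0.16 with hairpin 1 (edgeR adjusted p = 3.8e-05) and had 0.02 with hairpin 2, while SLIRP (-0.02 in the mean) did not pass. The call of LRPPRC in the mean of both (-0.07) was lost without shGFP replicate 1 (-0.08) or 3 (-0.05), hairpin 1 replicate 1 (-0.06) or hairpin 2 replicate 3 (-0.07), and with DESeq2 (-0.07). FASTK fell by 0.18 on the log2 scale in the mean of both hairpins, its relative TBRG4 rose by 0.13, and the mitochondrial poly(A) polymerase gene MTPAP rose by 0.21. ANGEL2, an RNA phosphatase, had -0.13, a call lost without shGFP replicate 3 (-0.09).

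Genes of rRNA modification and ribosome assembly had 9 of 22 higher, 2 lower and 11 not passed (median 0.05). Among all genes 45.5% were called in this mean of both hairpins, 22.3% higher and 23.2% lower. ERAL1, a chaperone of the MT-RNR1 product, rose from 119 CPM in shGFP to 147 and 132 with hairpins 1 and 2 (log2 fold change 0.31 and 0.15), and was higher with hairpin 1 than with hairpin 2 by 0.16 (edgeR adjusted p = 8.8e-05). NGRN, RPUSD4 and TRUB2, which act on the MT-RNR2 product as part of a pseudouridine synthase module, rose by 0.18, 0.16 and 0.12 on the log2 scale in the mean of both hairpins. Their hairpin 2 values of 0.08, 0.01 and 0.05 did not pass. The matrix protein gene C1QBP rose by 0.10.

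Genes of mitochondrial DNA replication and maintenance had 4 of 14 higher, 5 lower and 5 not passed (median 0.03). Among all genes 22.3% were higher and 23.2% lower in the same mean of both hairpins. TOP1MT, the mitochondrial topoisomerase I, was at 38.5, 33.9 and 34.1 CPM in shGFP, 68.6, 68.4 and 70.8 under hairpin 1, and 68.8, 66.8 and 69.0 with hairpin 2. Every knockdown library was above every control (log2 fold change 0.97 and 0.95, edgeR adjusted p = 1.0e-21 and 3.7e-21). The thymidine kinase gene TK2 rose by 0.35 on the log2 scale in the mean of both hairpins and TWNK, the replicative helicase, by 0.27. DNA2, a nuclease and helicase, fell by 0.50 and the nucleoid-associated ATPase gene ATAD3A by 0.14.

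Regulators of mitochondrial biogenesis had 3 of 8 higher, 3 lower and 2 not passed (median 0.03). Among all genes 22.3% were higher and 23.2% lower in the same mean of both hairpins. The orphan receptor gene ESRRA rose by 0.27 in the mean of both hairpins, from 227 to 281 and 267 CPM. Its relative ESRRG fell by 2.53 from the low level of 0.80 CPM to 0.11 and 0.16. GABPA, a DNA-binding factor of respiratory genes, fell by 0.22. Its call with hairpin 2 (-0.13) was lost without shGFP replicate 3 (-0.08) or hairpin 2 replicate 1 (-0.07) or 3 (-0.14). That call was also lost without hairpin 1 replicate 1 (-0.12) or 3 (-0.13) and with DESeq2 (-0.13). No filter on low counts (-0.13) or a fit of only the groups compared (-0.12) lost it too. The coactivator gene PPARGC1B rose by 0.21, with 0.07 under hairpin 1 that did not pass and 0.35 under hairpin 2.

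The nuclear partners of the mitochondrial products changed in both directions. Nuclear-encoded respiratory chain subunits had 15 of 77 tested members higher, 10 lower and 52 not passed in the mean of both hairpins (median 0.02). ATP5F1B, the catalytic ATP synthase subunit, rose by 0.10 and the complex III subunit gene UQCRFS1 by 0.17. ATP5MG, another ATP synthase subunit, rose by 0.39, while the complex III gene UQCRB and the complex IV gene NDUFA4 fell by 0.16 and 0.15. Proteins of the mitochondrial ribosome, which is built on the 2 rRNAs, had 12 of 77 higher, 12 lower and 53 not passed (median 0.00). MRPL41, MRPL34 and MRPS25 rose by 0.30, 0.23 and 0.19, and MRPL24 and MRPL51 fell by 0.21 and 0.16. The shares called, 25 and 24 of 77, lay below the 45.5% of all genes.

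**Figure D5:**
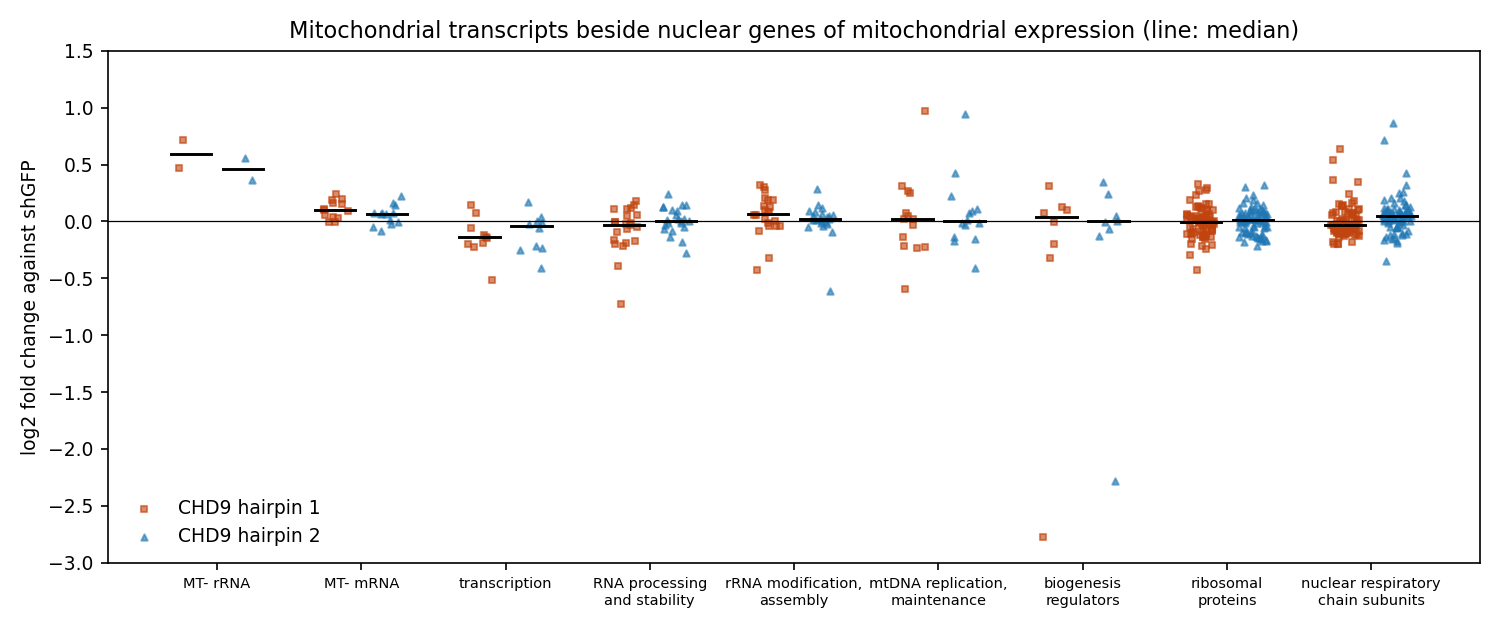
Each point is the log2 fold change of a tested gene against shGFP, by list and hairpin, with the list's median as a line. The 2 rRNAs have medians of 0.59 and 0.46 with hairpins 1 and 2, and the medians of the nuclear lists lie between -0.14 and 0.07.

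Copies of mitochondrial genes in the nuclear genome can take reads from the originals. Of 417 annotated copies 41 had any count, 51059 in all or 0.605% of the mitochondrial mRNA and rRNA counts. MTATP6P1 held 46683 of them, equal to 10.4% of the counts of MT-ATP6. MTCO1P12 and MTND2P28 followed with 3614 and 461 counts. How reads that map to both a copy and its original were counted is not given. These counts thus do not bound the uncertainty in the level of MT-ATP6 or of the other originals. None of these 3 tested copies passed against shGFP by edgeR (log2 fold changes 0.04, 0.01 and 0.32 in the mean of both hairpins, adjusted p = 0.40, 0.93 and 0.22). The copies of MT-RNR2 had 14 counts in all libraries beside 986661 of MT-RNR2 itself.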

How the data were processed

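Polyadenylated RNA of 22Rv1 cells was sequenced as 9 libraries, 3 per group, with strand-specific chemistry, per the labels' protocols. Trim Galore, STAR, DESeq2 and the build hg38 were used, per the submitters' processing notes. Which program counted the reads, and whether by strand, is not given in the sources used here. What the authors deposited is 1 table of whole-number counts of reads per gene, not normalised. Symbols, coordinates and transcript sequences came from GENCODE 29 and a table of gene names (60704 of 67071 identifiers had a symbol).

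Genes were kept by filterByExpr with a minimum count of 10, libraries were scaled by TMM, and a mean per group was fitted to all 9 libraries by the quasi-likelihood test of edgeR 4.0.16 in R 4.3.3. Benjamini-Hochberg adjustment ran over 16855 genes, and a gene was called at an adjusted p under 0.05. CPM use the scaled totals unless stated. Ratios of summed counts are descriptions. The fit was also run on simulated counts with the same spread for every gene. That setting is simpler than these data, and no result here rests on it. Alternatives were DESeq2 1.42.0 and its size factors, voom in limma 3.58.1, other filters and scalings, the replicate number as a block, and fits lacking 1 library. The members and gene lists were chosen with earlier results of these data known. By rule the text names every MT- gene, CHD9, up to 5 genes of the smallest unadjusted p in each other list, POLRMT, TFAM, TFB2M, TEFM, MTERF1, LRPPRC, SLIRP, and the nuclear copies with the most counts. The members with few counts are the tRNAs, and the parts of library totals and of tail selection in this were not tested.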

Additional observations from a re-analysis of the deposited data

Results flagged for a closer look

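The differences below are those between the effects of the 2 hairpins that passed edgeR's test of the difference itself, as log2 fold change with hairpin 1 minus that with hairpin 2. Both effects share the shGFP libraries, and each difference compares the 2 hairpin groups directly.

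Among the mitochondrial transcripts, MT-ND3 differed by 0.25 (edgeR adjusted p = 2.5e-06), MT-RNR2 by 0.16 (edgeR adjusted p = 8.1e-09), MT-ND1 by 0.14 (edgeR adjusted p = 2.2e-05) and MT-CO3 by 0.12 (edgeR adjusted p = 2.1e-06). MT-CO2 differed by 0.11, MT-RNR1 by 0.1, MT-CO1 by 0.08, MT-ND5 by 0.05 and MT-CYB by -0.08 (edgeR adjusted p = 0.00020, 0.0091, 0.00054, 0.042 and 0.0039).

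CHD9 itself was lower with hairpin 1 (-0.28, edgeR adjusted p = 0.0024). Among nuclear genes of mitochondrial expression, TRMT10C (-0.45), PPARGC1B (-0.27), GABPA (-0.19), LRPPRC (-0.18), DNA2 (-0.18), ANGEL2 (-0.16), TK2 (-0.16) and TFAM (-0.13) had lower values with hairpin 1. RPUSD4 (0.31), NGRN (0.19), ERAL1 (0.16), TRUB2 (0.16) and ESRRA (0.07) had higher values. ATP5F1B and MRPS25 had lower values with hairpin 1, by -0.09 and -0.08. The difference of TFAM was lost on leaving out any hairpin 1 library, hairpin 2 replicate 2 or hairpin 2 replicate 3, and with DESeq2 (-0.11 to -0.13). That of DNA2 was lost without hairpin 1 replicate 3 (-0.14) or hairpin 2 replicate 2 (-0.14), that of TK2 without hairpin 1 replicate 3 (-0.14) and that of GABPA without hairpin 2 replicate 2 (-0.14). The ESRRA difference was lost without hairpin 1 replicate 1 (0.06) or 2 (0.08) or hairpin 2 replicate 2 (0.06). With no filter on low counts (0.07) it was lost too. The MRPS25 difference was lost without hairpin 1 replicate 2 (-0.08) or 3 (-0.07) and without hairpin 2 replicate 2 (-0.08) or 3 (-0.07). The MT-RNR1 and MT-ND5 differences were likewise lost without single libraries and in other fits, with the values given among the results.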

How the results depend on the processing

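Counts of mitochondrial genes called depended on the fit. In the mean of both hairpins 8 were higher, 5 with DESeq2 and 5 to 11 on leaving out a library, and 1 was lower, 0 to 1 on leaving out a library. With hairpin 1 the counts were 9 higher and 0 lower, with 8 to 12 higher on leaving out a library. With hairpin 2 they were 8 higher and 1 lower, with 2 lower under no filter on low counts or under voom, and 6 to 9 higher and 1 to 3 lower on leaving out a library. Between the hairpins they were 8 higher and 1 lower, with 6 to 8 and 1 to 2 on leaving out a library. With library sizes from the mitochondrial mRNAs, 2 were lower with hairpin 1, 5 higher with hairpin 2, and 3 higher and 2 lower between the hairpins. The median log2 fold change of all genes was then -0.06 with hairpin 1, -0.01 with hairpin 2 and -0.06 between the hairpins. Under that scaling MT-CO2 with hairpin 1 had -0.0086 and MT-ND5 between the hairpins -0.0026, against 0.06 and 0.05. Of 1421 values of mitochondrial genes under alternatives, 1334 stayed on their side of the threshold, 46 of them with another sign and passed in neither fit, while 55 lost the call, 30 gained it and 2 reversed.

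The rRNA to mRNA difference was 0.38, 0.40 and 0.35 for the mean of both hairpins, hairpin 1 and hairpin 2 with MT-RNR1 alone, and 0.0489 between the hairpins. With medians of log2 CPM it was 0.37, 0.42 and 0.32. The log2 ratio of MT-ND6 to the other mRNAs with hairpin 2 was -0.0490 with the median of their log2 CPM. The mitochondrial share of counts differed by 0.0631, 0.0800 and 0.0462 percentage points in the same order for the mRNAs only, and by 0.216 with hairpin 1 for the rRNAs only. The causes were not tested beyond what each setting leaves out.

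With the replicate number as a block, the counts of calls were 8 and 1, 9 and 0, 8 and 1, and 8 and 1 higher and lower in the 4 comparisons, as without it. Among the named nuclear genes the block brought in TEFM in the mean of both hairpins (-0.20, edgeR adjusted p = 0.045) and changed no other call. The numbers do not pair the libraries: same-numbered libraries correlated by -0.022 to 0.040 after group means were removed, and 0 of 9 pairs passed 0.1. A fit of only the groups compared does not apply to the mean of both hairpins. For CHD9 and the named nuclear genes the alternatives were added after seeing the data, and 2754 of 2835 values stayed on their side of the threshold. Also chosen after seeing the data was the rRNA to mRNA difference without libraries over 10 CPM of RN7SL1, which leaves 1 library of hairpin 1 and no test (0.64). Of the 22 tRNAs, 18 did not pass the filter on low counts and were not tested.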
